A study of Mus musculus with 6 samples.

Results

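The genes described here build, cut, bundle and anchor actin filaments in macrophages. The set holds 50 genes of 12 functional classes, taken by gene symbol from the 15824 genes listed in the expression table, and all 50 were found there and passed the filter on low counts. RNA was sequenced from alveolar macrophages, the resident phagocytes of the lung airspaces, which were sorted by flow cytometry from mice aged 8 weeks. There were 3 libraries with a knockout of Men1 (KO) and 3 wild-type libraries (WT). Men1 encodes menin, a scaffold protein of MLL histone methyltransferase complexes. The labels name the genotype and the age and no treatment other than the sort, and they give no Cre driver, strain or sex. It is also not stated if each library is from a mouse of its own. The p-values therefore cover the spread between the libraries at hand, which could be technical alone.

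Macrophages crawl, spread and engulf particles by polymerising actin against the plasma membrane. The Arp2/3 complex, switched on by WASP and WAVE proteins, starts branched filaments, while formins and Ena/VASP proteins lengthen unbranched ones, and cofilin, gelsolin-type proteins and coronins cap, cut and recycle them. Macrophages also form podosomes, which are contact sites with a core of branched actin and a ring of integrins, talin and vinculin joined to the filaments by crosslinkers and myosins.

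Men1 had 150, 149 and 165 counts in KO libraries 1, 2 and 3, against 639, 594 and 603 in WT libraries 1, 2 and 3. The counts are summed over the whole gene, so the deleted part is not resolved here. Library totals lay between 19955242 and 20151990 counts. Y-linked transcripts summed to 0 to 0.102 counts per 1e6 reads of the scaled library size (CPM) in KO libraries and to 162 to 169 CPM in WT libraries, so each difference below is also one between libraries nearly without and with Y-linked transcripts. Of 10 general macrophage markers, all were detected, summing to 33375 to 34143 CPM in KO and 28432 to 29586 CPM in WT. The alveolar macrophage markers summed to 1287 to 1328 CPM in KO and 396 to 411 CPM in WT, with 3 of 8 tested genes higher and 4 lower in KO. Marco, a scavenger receptor, made up most of that sum in KO, at 1137 ± 22.8 CPM in KO and 172 ± 2.17 CPM in WT (SD, n = 3 each). Other defining alveolar markers were close to 0 in all 6 libraries, with Fabp1, Plet1 and Ear2 at 3 counts or fewer per library. The markers of interstitial macrophages and monocytes summed to 1939 to 1972 CPM in KO and 1019 to 1039 CPM in WT. Those of fibroblasts, smooth muscle and mesothelium summed to 17.3 to 19.7 CPM in KO and 96.5 to 99.2 CPM in WT, with 11 of 11 tested genes lower in KO and with Des and Msln at 3 counts or fewer. The 8 proliferation markers summed to 361 to 372 CPM in KO and 893 to 900.5 CPM in WT. Neutrophil markers summed to 138.0 to 138.6 CPM in KO and 58.1 to 61.3 CPM in WT, with 3 of 4 tested genes higher and 1 lower in KO and with Retnlg and Elane at 3 counts or fewer per library. Endothelial markers summed to 64.6 to 67.1 CPM in KO and 77.4 to 80.5 CPM in WT, and lymphocyte markers to under 1 CPM in each library. The part of these shifts in the results below was not tested, and in bulk RNA fewer cells of a type cannot be told apart from less RNA per cell.

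Most actin machinery genes were slightly higher in KO macrophages on the count scale, though not on the TPM scale, and a few moved strongly. Of the 50 genes, 45 passed an adjusted p of 0.05 in the quasi-likelihood test of edgeR, adjusted over all tested genes after Benjamini and Hochberg. Among all 11817 genes tested, 69.2% passed, at an estimated biological coefficient of variation of 1.66%, the relative spread between libraries of a group. By direction, 34 of the 50 genes (68.0%) were higher, against 34.4% of all genes, and 11 (22%) were lower, against 34.9% of all genes. The median log2 fold change, KO over WT, was 0.10 over the 50 genes and 0.0014 over all genes tested. On the authors' TPM values, where the median of all genes shifts to -0.12, 18 of the 50 were called higher by limma, against 21.1% of all genes, and 21 lower, against 49.3% of all genes, and the median of the 50 was -0.04. On both scales 36 of the 50 genes lay above the median of all genes. In the paragraphs that follow, a log2 fold change on the TPM scale is to be read against that median of -0.12. Likewise, each count of a class is to be read against the shares of all genes called on its scale, given above. Genes with a mean of at least 50 CPM were called higher in 43.4% of cases and lower in 37.9%, and of the 45 actin machinery genes at that level 33 (73.3%) were higher and 8 (17.8%) lower.

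Changes of at least 1.5-fold were found for 7 genes (14.0%), against 17.8% of all genes. Vill, Vasp and Coro1b were higher in KO, as were 8.4% of all genes at that size, and Enah, Fmnl2, Ezr and Lsp1 were lower, as were 9.39% of all genes. The groups did not overlap for 44 of the 50 genes, where 71.2% of all genes had groups that did not overlap. In edgeR's test against a minimum fold of 1.2, 16 of the 50 genes passed an adjusted p of 0.05. That share was about the same as the 31.9% of all genes tested. They were Actb, Arpc1b, Was, Vasp, Evl, Cfl1, Pfn1, Vill, Coro1a, Coro1b and Fermt3, higher in KO, and Enah, Fmnl2, Ezr, Rdx and Lsp1, lower in KO. Assuming a much wider spread between libraries (a coefficient of 0.1) left the same 16 genes, where a larger share of all genes, 37.3%, passed. Together the 50 genes took 4.21% to 4.23% of all counts in KO libraries and 3.84% to 3.86% in WT libraries.

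**Figure D1:**
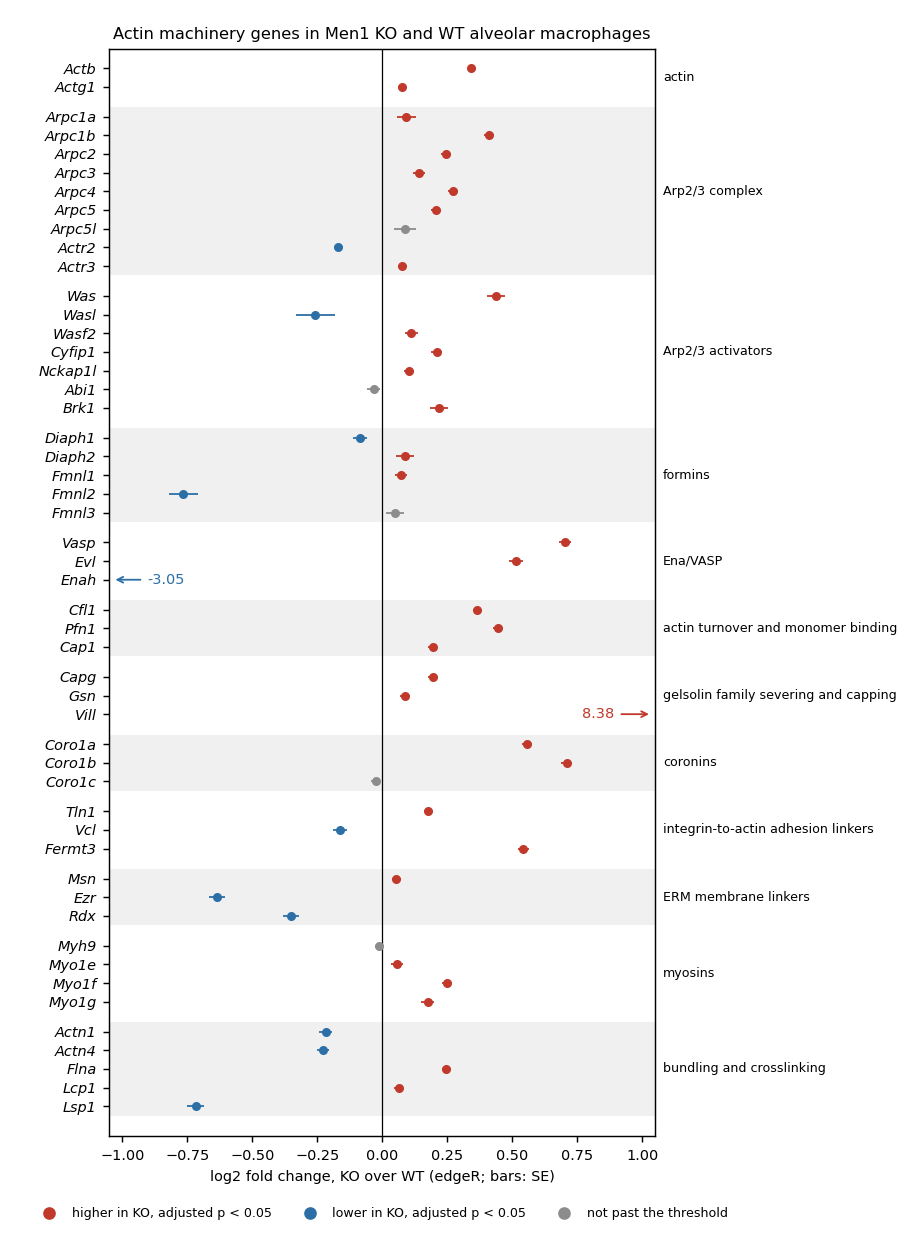
The log2 fold change (KO over WT) of each of the 50 genes is plotted by functional class, with bars for its SE from edgeR, red for higher, blue for lower and grey for not past an adjusted p of 0.05; arrows give Vill (8.38) and Enah (-3.05), which lie outside the axis. Most points lie between 0 and 0.5. There, 14 genes with values between 0.05 and 0.14 turn below 0 on the TPM scale, where the median of all genes is -0.12. The coronins, the Ena/VASP proteins and the ERM linkers each hold genes far apart from one another.

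The cytoplasmic actins had the highest levels of the set per transcript length. Actb, beta-actin, had 146600, 141940 and 143933 counts in KO libraries 1, 2 and 3, against 117718, 116947 and 119785 in WT libraries 1, 2 and 3. Every KO library lay above every WT library, and the mean was 7341 ± 95.2 CPM in KO and 5787 ± 48.6 CPM in WT (SD, n = 3 each; log2 fold change 0.34, SE 0.014, adjusted p = 1.43e-21 in edgeR's test). Actg1, gamma-actin, was at 5585 ± 10.8 CPM in KO and 5303 ± 26.7 CPM in WT (SD, n = 3 each), a log2 fold change of 0.07 that was -0.07 on the TPM scale. The 2 cytoplasmic isoforms therefore changed unequally. Per length, in the deposited FPKM, Actb made up 56.6% ± 0.281 of the summed level of both in KO and 52.0% ± 0.324 in WT (SD, n = 3 each), without overlap. Because both transcripts are near-identical in their coding part, the split of reads between them, and with actin pseudogenes, depends on a counting method that is not stated.

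Within the Arp2/3 complex, 7 of 9 genes were called higher and 1 lower in KO, and on the TPM scale 4 were higher and 2 lower. Over all genes tested the shares were 34.4% higher and 34.9% lower, and on the TPM scale 21.1% and 49.3%. Arpc1b, the WD-repeat subunit that predominates in blood cells, moved most, with 22774, 22719 and 22935 counts in KO libraries against 17707, 17334 and 18534 in WT libraries. The groups lay well apart (log2 fold change 0.41, SE 0.019, adjusted p = 2.80e-20 in edgeR's test). Its paralogue Arpc1a had a log2 fold change of 0.09, which was -0.05 on the TPM scale. The subunits Arpc4, Arpc2 and Arpc5 were higher by 0.27, 0.25 and 0.21 on the log2 scale, and Arpc3 by 0.14, which was -0.0034 on the TPM scale. Arpc5l, the paralogue of Arpc5, did not pass (log2 fold change 0.09, and -0.05 on the TPM scale; adjusted p = 0.0693 in edgeR's test). The actin-related subunits that form the template of the new branch went opposite ways on the count scale. On the TPM scale both were below 0, but Actr3 (-0.06) lay above the median of all genes (-0.12) and Actr2 (-0.31) below it. Actr3 had the highest CPM of the class, with 28552, 27248 and 27628 counts in KO libraries against 27403, 27536 and 27293 in WT libraries, and its log2 fold change was 0.08, or -0.06 on the TPM scale. Scaled to library size the groups of Actr3 did not overlap, although the raw counts did. Actr2 fell in KO by 0.17 on the log2 scale (adjusted p = 4.19e-10 in edgeR's test). Actr2 made up 30.5% ± 0.801 of the FPKM of Actr2 and Actr3 in KO and 34.2% ± 0.296 in WT (SD, n = 3 each).

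Among the activators of Arp2/3, 5 of 7 genes were called higher and 1 lower in KO, and on the TPM scale 2 were higher and 2 lower. Was encodes WASP, the blood-cell activator needed for podosomes, and had 2639, 2627 and 2763 counts in KO libraries against 2164, 1907 and 2092 in WT libraries. All 3 KO libraries lay above the WT libraries, and the log2 fold change was 0.44 (SE 0.034; adjusted p = 5.75e-14 in edgeR's test). Wasl, the widely expressed N-WASP, went the other way, at 13.7 ± 1.22 CPM in KO and 16.3 ± 1.56 CPM in WT (SD, n = 3 each; log2 fold change -0.26, adjusted p = 0.00329 in edgeR's test), and its groups overlapped. The WAVE complex genes moved less. Its largest level in CPM belonged to Nckap1l, the blood-cell HEM1 subunit, with 15361, 14971 and 15267 counts in KO libraries against 14755, 14561 and 14830 in WT libraries. The groups of Nckap1l stood apart by little, at a log2 fold change of 0.10 that was -0.04 on the TPM scale. Brk1 and Cyfip1, 2 further WAVE complex subunits, were higher by 0.22 and 0.21 on the log2 scale, while Wasf2, the WAVE2 protein itself, had a log2 fold change of 0.11 that was -0.02 on the TPM scale. Abi1, an adaptor of the complex, did not pass (log2 fold change -0.03, adjusted p = 0.242 in edgeR's test). Part of the Cyfip1 count may belong to Nipa2, which overlaps it and had a mean of 1493 counts against 9829 for Cyfip1.

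Formins processively lengthen unbranched filaments. Of the 5 formin genes, 2 were called higher and 2 lower in KO, and on the TPM scale 4 were lower and none higher. Among all genes, 34.4% were higher and 34.9% lower, and on the TPM scale 21.1% and 49.3%. Fmnl2, a formin of protrusions, had 388, 363 and 364 counts in KO libraries against 685, 671 and 615 in WT libraries. The groups were far apart, and the level was 18.9 ± 0.664 CPM in KO and 32.2 ± 1.93 CPM in WT (SD, n = 3 each; 1.70-fold lower in KO, log2 fold change -0.77, SE 0.056, adjusted p = 1.65e-14 in edgeR's test). Diaph1, the mDia1 formin downstream of RhoA, had the highest CPM of the class, with 4810, 5074 and 4632 counts in KO libraries against 5281, 5359 and 5374 in WT libraries. Its groups overlapped once scaled to library size, and its log2 fold change of -0.09 (adjusted p = 0.0041 in edgeR's test) was 0.0079 when transcript length was taken into account. Fmnl1, the blood-cell member, had a log2 fold change of 0.07 and Diaph2 of 0.09, and both were below 0 on the TPM scale (-0.06 and -0.05). Fmnl3 did not pass (log2 fold change 0.05, and -0.09 on the TPM scale and -0.01 on log2(FPKM + 1); adjusted p = 0.188 in edgeR's test). Per length Fmnl2 was a minor formin, at 3.94% ± 0.184 of the summed FPKM of the FMNL genes in KO and 6.85% ± 0.456 in WT (SD, n = 3 each), and Fmnl1 was the main one, at 74.5% ± 0.317 in KO and 71.9% ± 0.128 in WT.

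The Ena/VASP proteins, which protect growing filament ends from capping, had the largest ratio of summed CPM of the 12 classes, with 2 genes higher and 1 lower in KO on the count and TPM scales. Vasp had 6322, 6197 and 6407 counts in KO libraries against 3951, 4064 and 4072 in WT libraries. The lowest KO library was far above the highest WT library, at 321 ± 4.93 CPM in KO and 197 ± 3.07 CPM in WT (SD, n = 3 each; 1.63-fold, log2 fold change 0.70, SE 0.023, adjusted p = 7.64e-25 in edgeR's test). Evl, the Ena/VASP-like protein, was also higher in KO, at 170 ± 4.0 CPM against 119 ± 2.90 CPM in WT (SD, n = 3 each; log2 fold change 0.51). Enah, the Mena protein, best known from neurons and migrating mesenchymal cells, had 6, 7 and 6 counts in KO libraries against 51, 60 and 55 in WT libraries. Enah was thus scarce in WT and almost lost in KO, 8.40-fold lower by the pooled counts (95% counting interval 5.21 to 14.3, exact Clopper-Pearson; log2 fold change -3.05, adjusted p = 7.78e-13 in edgeR's test). On the log2(FPKM + 1) scale the log2 fold change of Enah was -0.54, since the pseudocount of 1 is larger than its level. Its mean FPKM was 0.06 in KO and 0.543 in WT. Enah passed the filter on low counts through its WT libraries alone, so its p-value is a description and not separate support. The fall of Enah went with that of the fibroblast and smooth muscle markers given above, and their part in it was not tested. Enah made up 0.022% of the summed FPKM of the 3 genes in KO and 0.294% in WT, so the summed class was 1.54-fold higher in KO, at 491 ± 7.08 CPM against 319 ± 5.95 CPM in WT (SD, n = 3 each).

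**Figure D2:**
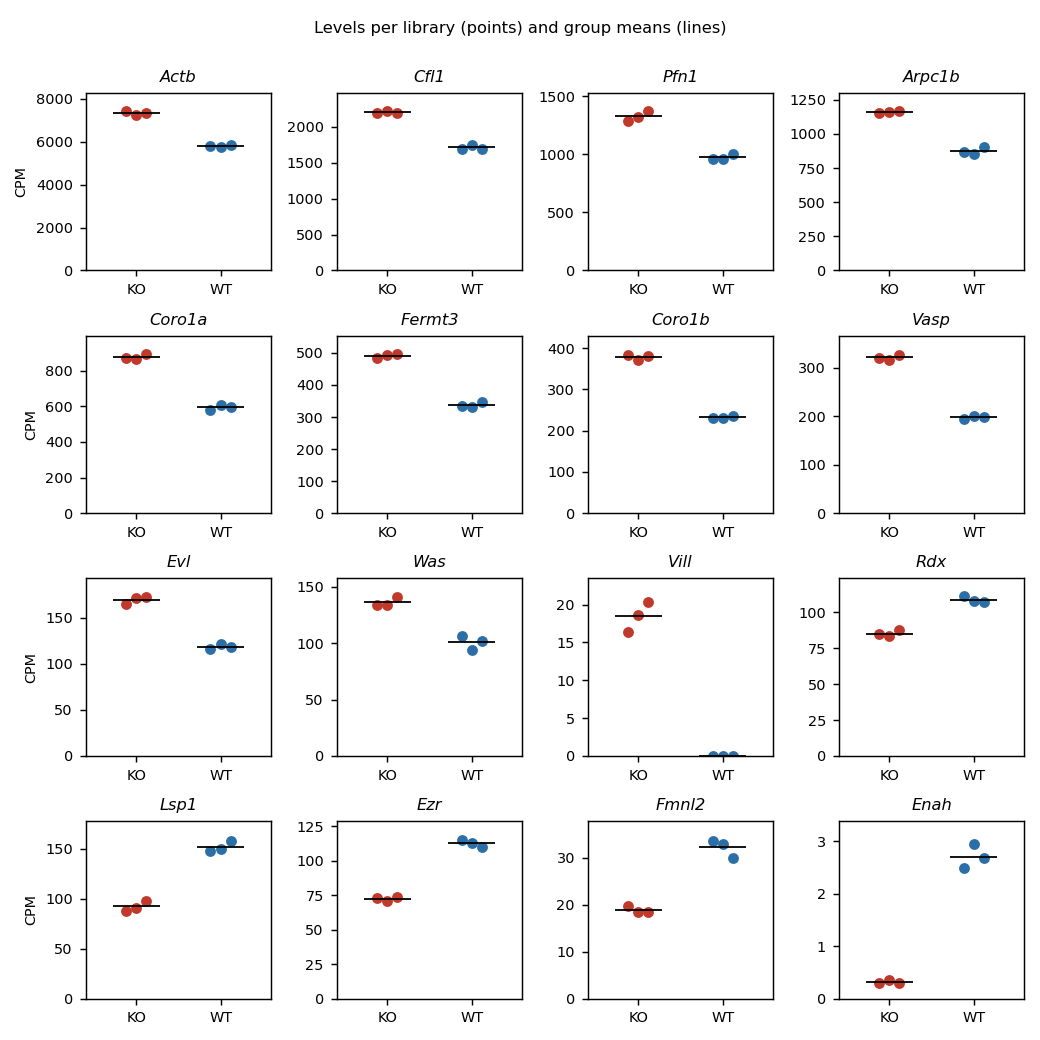
Each panel gives the CPM of 1 gene in the 3 KO libraries (red points, left) and the 3 WT libraries (blue points, right), with black lines for the group means and an axis that starts at 0; the 16 genes are those that passed the test against a 1.2-fold change. In every panel the KO and WT points are separate, with Actb to Vill higher in KO and Rdx to Enah lower in KO.

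The actin turnover genes all rose, on the count and TPM scales alike. Cfl1, cofilin, which severs old filaments, had 43279, 43504 and 42999 counts in KO libraries against 34583, 35545 and 34698 in WT libraries. Each KO library exceeded each WT library by a wide margin (log2 fold change 0.36, SE 0.017, adjusted p = 1.26e-20 in edgeR's test). Pfn1, profilin, which feeds actin monomers to filament ends, was at 1329 ± 41.5 CPM in KO and 975 ± 25.5 CPM in WT (SD, n = 3 each; log2 fold change 0.45), and Cap1, a partner of cofilin, was higher by 0.19 on the log2 scale. By FPKM, Actb, Actg1, Cfl1, Pfn1 and Capg were ranks 1 to 5 of the 50 genes, in that order in both groups.

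Of the gelsolin family, 3 of 3 genes were called higher in KO, and on the TPM scale 1 was higher and 1 lower. Capg, a capping protein of macrophages, had 24523, 23783 and 24847 counts in KO libraries against 21800, 21837 and 22823 in WT libraries. Its groups did not overlap, at a log2 fold change of 0.19 (SE 0.019). Gsn, gelsolin, which severs and caps filaments in the presence of calcium, had a log2 fold change of 0.09 that was -0.05 on the TPM scale. Vill, a villin-like gene of this family, had 323, 365 and 399 counts in KO libraries against 1, 1 and 1 in WT libraries. It was thus all but undetected in WT and at 18.5 ± 1.97 CPM in KO (SD, n = 3), a ratio of pooled counts of 377 (95% counting interval 129 to 1830, exact Clopper-Pearson; adjusted p = 2.32e-27 in edgeR's test). The fitted log2 fold change of 8.38 depends on so few WT counts that the interval is the better measure. Such intervals cover counting error only. Vill passed the filter on low counts through its KO libraries alone, so its p-value is a description and not separate support. Even in KO, Vill made up 0.891% ± 0.098 of the summed FPKM of 8 gelsolin family genes, where Capg made up 76.9% ± 0.276 (SD, n = 3 each). Villin itself (Vil1) was at 0.0013% of that sum in KO and 0.0024% in WT. It had 1, 1 and 1 counts in KO libraries and 2, 2 and 1 in WT libraries. Vil1 was thus not tested, and its shares cannot be told apart. Scin, a calcium-dependent severing protein outside the set, was at 0.0396% of the sum in KO and 0.342% in WT.

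Vill lies on chromosome 9 from 119052729 to 119071525 (GRCm38.p6), between Ctdspl and Plcd1. Ctdspl, a phosphatase gene, had 245, 229 and 238 counts in KO libraries against 169, 171 and 166 in WT libraries (log2 fold change 0.55, adjusted p = 3.03e-07 in edgeR's test). Plcd1, a phospholipase C gene whose annotated span begins 2 bases past the end of Vill, had 51, 39 and 36 counts in KO libraries against 19, 12 and 22 in WT libraries (log2 fold change 1.30, adjusted p = 7.41e-06 in edgeR's test). Both neighbours were higher in KO, by far less than Vill. Acaa1b, a peroxisomal thiolase gene 76518 bases past Vill that was chosen after its values were seen, went the other way, with 1, 1 and 0 counts in KO libraries against 48, 39 and 40 in WT libraries. Since strand use in counting is not stated, reads running past the end of Vill cannot be told apart from reads of Plcd1. The neighbours of Enah, which lie 53983 and 97181 bases away on chromosome 1, were lower in KO by less than Enah, with log2 fold changes of -0.35 for Lbr and -0.09 for Srp9.

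The coronins, which recycle branched filaments together with cofilin, had 2 of 3 genes higher in KO, and on the TPM scale 2 higher and 1 lower. Coro1b had 7560, 7290 and 7482 counts in KO libraries against 4682, 4694 and 4828 in WT libraries. Its KO libraries lay far above its WT libraries, as for Vasp, at 379 ± 5.93 CPM in KO and 232 ± 3.06 CPM in WT (SD, n = 3 each; 1.63-fold, log2 fold change 0.71, SE 0.022, adjusted p = 1.66e-25 in edgeR's test). Coro1a, the leukocyte coronin, had 17129, 16901 and 17504 counts in KO libraries against 11835, 12316 and 12228 in WT libraries. It also stood clearly apart (log2 fold change 0.56, SE 0.019, adjusted p = 4.13e-24 in edgeR's test). Coro1c, at 478 ± 2.68 CPM in KO and 486 ± 1.79 CPM in WT (SD, n = 3 each), did not pass (log2 fold change -0.02, adjusted p = 0.267 in edgeR's test). The share of Coro1c in the summed FPKM of 6 coronin genes was accordingly smaller, at 13.7% ± 0.217 in KO and 19.2% ± 0.179 in WT (SD, n = 3 each).

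Talin, vinculin and kindlin join integrins to actin, and 2 of these 3 genes were higher and 1 lower in KO, while on the TPM scale 1 was higher and 1 lower. Tln1, talin, which opens integrins by binding their tails, had 20014, 20492 and 20167 counts in KO libraries against 18395, 18436 and 18932 in WT libraries. The groups did not overlap, at a log2 fold change of 0.18 (SE 0.018), but on the TPM scale Tln1 did not pass (0.04). Fermt3, kindlin-3, the talin partner of blood cells, was at 492 ± 6.30 CPM in KO and 338 ± 8.06 CPM in WT (SD, n = 3 each; log2 fold change 0.54, adjusted p = 1.76e-22 in edgeR's test). Vcl, vinculin, which reinforces the talin link under load, fell in KO by 0.16 on the log2 scale (adjusted p = 3.81e-06 in edgeR's test). The Vcl locus overlaps Ap3m1, which had a similar mean count (2617 against 2746 for Vcl), so its reads are less certain. The other kindlin of the table, Fermt2, made up 0.0266% of the summed kindlin FPKM in KO and 0.46% in WT.

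The ERM proteins tie actin to membrane proteins. Here 2 of 3 genes were lower in KO on the count scale, against 34.9% of all genes. On the TPM scale 3 of 3 were lower, against 49.3% of all genes. Ezr, ezrin, the form typical of epithelia, had 1440, 1387 and 1440 counts in KO libraries against 2337, 2298 and 2252 in WT libraries. All KO libraries lay far below the WT libraries, at 72.4 ± 1.38 CPM in KO and 112 ± 2.46 CPM in WT (SD, n = 3 each; 1.55-fold lower, log2 fold change -0.63, SE 0.032, adjusted p = 2.39e-19 in edgeR's test). Rdx, radixin, was lower too, at 85.4 ± 2.02 CPM in KO and 109 ± 2.0 CPM in WT (SD, n = 3 each; log2 fold change -0.35). Msn, moesin, the main ERM protein of leukocytes, had 37319, 36434 and 36629 counts in KO libraries against 37332, 36592 and 36609 in WT libraries. The raw counts of Msn were thus nearly equal, and its log2 fold change of 0.05 was -0.09 on the TPM scale and -0.0029 without scaling of the libraries. Per length, moesin made up 91.7% ± 0.143 of the summed ERM FPKM in KO and 88.2% ± 0.0736 in WT, ezrin 4.54% ± 0.066 in KO and 7.04% ± 0.0726 in WT, and radixin 3.75% ± 0.0803 in KO and 4.78% ± 0.0054 in WT (SD, n = 3 each). Of 12 epithelial markers 7 were in the table, summing to 1.07 to 1.38 CPM in KO and 2.40 to 2.88 CPM in WT, and Cdh1, the 1 that was tested, was lower in KO. Their part in the fall of Ezr was not tested.

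**Figure D3:**
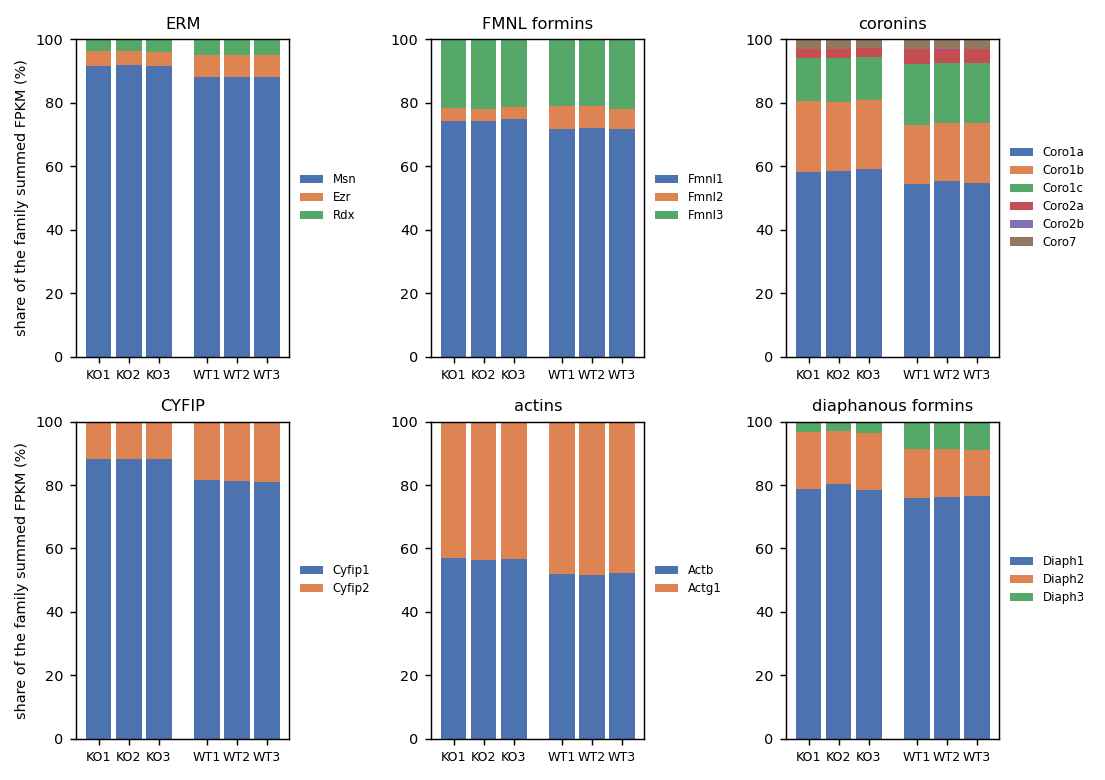
Stacked bars give the share of each gene in the summed FPKM of its family (in percent), with the 3 KO libraries left of the 3 WT libraries in each panel. Ezr and Rdx in the ERM family, Fmnl2, Coro1c, Cyfip2 and Diaph3 take smaller shares in KO, and Actb takes 56.6% of the actins in KO and 52.0% in WT.

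Of the 4 myosin genes, 3 were called higher and none lower in KO, against 34.4% and 34.9% of all genes. On the TPM scale 1 was higher and 1 lower, against 21.1% and 49.3% of all genes. Myh9, the heavy chain of the main contractile non-muscle myosin, had the highest CPM of the class, with 21978, 22382 and 21949 counts in KO libraries against 22552, 22977 and 23922 in WT libraries. Scaled to library size the groups overlapped, and Myh9 did not pass (log2 fold change -0.01, SE 0.019, adjusted p = 0.629 in edgeR's test), but with transcript length taken into account its log2 fold change was 0.12 (adjusted p = 6.77e-07). The class I myosins connect membranes to actin. Myo1f and Myo1g, both of blood cells, were higher by 0.25 and 0.17 on the log2 scale, while Myo1e, found with Myo1f at phagocytic cups, had a value of 0.06 that was -0.05 on the TPM scale and -0.00055 without scaling of the libraries.

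Of the 5 bundling and crosslinking genes, 2 were higher and 3 lower in KO, against 34.4% and 34.9% of all genes. On the TPM scale 1 was higher and 4 lower, against 21.1% and 49.3% of all genes. Lcp1, L-plastin, the leukocyte bundling protein, had the highest CPM, with 51821, 54441 and 53850 counts in KO libraries against 52458, 52926 and 53982 in WT libraries. Its groups overlapped, and its log2 fold change of 0.06 was -0.08 on the TPM scale. Flna, filamin A, which crosslinks filaments into nets and binds integrins, was higher, at 2614 ± 4.69 CPM in KO and 2203 ± 51.8 CPM in WT (SD, n = 3 each; log2 fold change 0.25). Lsp1, a leukocyte protein found at the caps of podosomes, had 1737, 1787 and 1923 counts in KO libraries against 3013, 3050 and 3245 in WT libraries. Its groups were far apart, at 92.5 ± 5.01 CPM in KO and 152 ± 5.51 CPM in WT (SD, n = 3 each; 1.64-fold lower, log2 fold change -0.72, SE 0.033, adjusted p = 2.01e-20 in edgeR's test). Actn4 and Actn1, the alpha-actinins, fell together by 0.23 and 0.22 on the log2 scale. Their ratio to each other hardly moved, with Actn1 at 41.7% ± 0.421 of their summed FPKM in KO and 41.5% ± 0.649 in WT (SD, n = 3 each), and these groups overlapped.

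Paralogues outside the set, chosen after their values were seen, took smaller shares in KO in several families. Cyfip1 made up 88.3% ± 0.0862 of the FPKM of Cyfip1 and Cyfip2 in KO and 81.3% ± 0.274 in WT (SD, n = 3 each). Diaph3, a formin of cytokinesis, made up 3.22% ± 0.217 of the diaphanous formins in KO and 8.72% ± 0.184 in WT, and the part of the lower proliferation markers in this was not tested. The main member of the set gained in both families. Was likewise made up 95.7% ± 0.47 of the FPKM of Was and Wasl in KO and 93.2% ± 1.1 in WT. In the ABI family the set's gene lost share, with Abi1 at 75.1% ± 0.965 in KO and 81.8% ± 0.378 in WT, and Abi3 at 21.3% ± 1.13 in KO and 14.5% ± 0.488 in WT.

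The direction of change went with transcript length. Over the 50 genes the Spearman correlation of the log2 fold change with the length behind the FPKM values was -0.52, and over the 11201 tested genes with a length it was -0.215, across genes that share the same 6 libraries. Of the 18 genes of the set no longer than 1795 bases, 16 were higher and 1 lower in KO, against 44.3% of all genes in that length range called higher and 22.7% called lower. Of the 21 genes longer than 3305 bases, 10 were higher and 9 lower, against 26.7% of all long genes called higher and 47.5% called lower. Short members such as Pfn1, Cfl1, Arpc1b and Coro1a thus lay above long ones such as Diaph1, Vcl and Myh9, with Flna, Tln1 and Diaph2 as long genes that were higher, although Diaph2 was below 0 on the TPM scale. In a fit with a length term, added after the data were seen, 33 of the 50 genes were called higher and 10 lower, against 32.7% and 35.0% of all genes, 7 of the 50 reached 1.5-fold, and the correlation over the 50 genes was -0.21. In that fit Actg1, Arpc1a, Arpc3 and Diaph1 no longer passed, while Fmnl3 and Myh9 did (log2 fold changes 0.10 and 0.12). Abundant genes of the set also tended to have higher fold changes, with a Spearman correlation of 0.48 between FPKM and log2 fold change over the 50 genes and 0.135 over all genes.

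**Figure D4:**
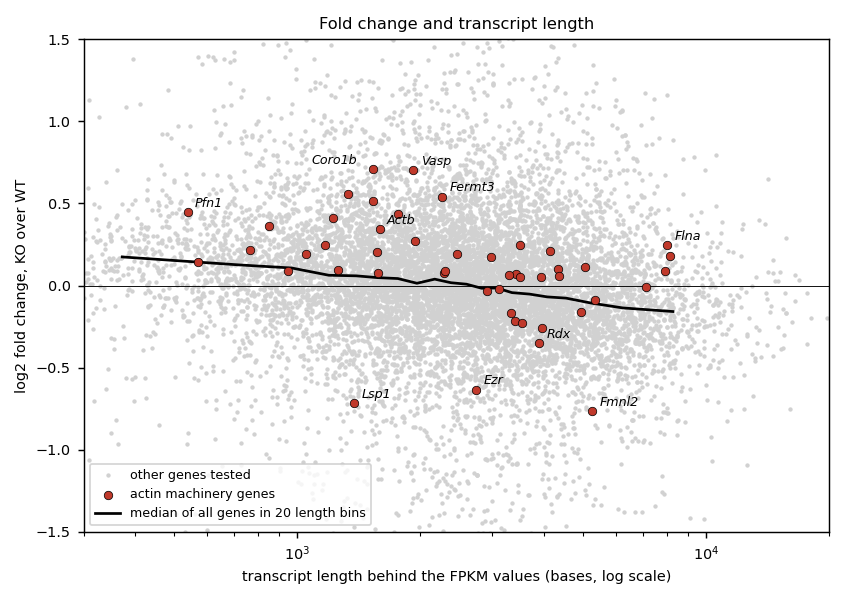
The log2 fold change (KO over WT) is plotted against the transcript length in bases on a log axis for tested genes (grey) and actin machinery genes (red), with the median of all genes in 20 length bins as a black line; Vill and Enah lie outside the vertical range. The black line falls with length, Coro1b, Vasp and Fermt3 lie far above it, and Lsp1, Ezr and Fmnl2 lie far below it.

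Serum response factor and its MRTF coactivators sense free actin and drive many actin genes through a promoter element called the CArG box. A CArG box, searched on both strands from 250 bases before to 50 after the RefSeq start, was present in 4 of the 43 genes found in the table (9.30%), in 1.53% of the tested genes and in 1.81% of all genes in that table. The windows around the element, in capitals, are shown for these 4 genes, on GRCm38.p6.
Arpc4, chr6:113377863-113377882, plus strand: CCTAATTTGGtgcccaacct
Myo1e, chr9:70207308-70207337, plus strand: gctgaattctCCATTTATGGacagattgcc
Actg1, chr11:120348566-120348595, minus strand: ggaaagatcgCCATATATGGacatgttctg
Vcl, chr14:20929161-20929190, plus strand: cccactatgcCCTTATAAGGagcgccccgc
The elements begin 250, 32, 90 and 227 bases before the start of Arpc4, Myo1e, Actg1 and Vcl. These 4 genes did not move alike, since Arpc4 was higher and Vcl lower in KO, and Actg1 and Myo1e turned sign with the TPM scale. A match is a description of sequence and does not show that the factor binds. Of 13 genes of the serum response factor and MRTF list, 3 were higher and 8 lower in KO, against 34.4% and 34.9% of all genes tested, with a median log2 fold change of -0.29. Ccn2, a matricellular target, had 22, 29 and 16 counts in KO libraries against 285, 323 and 304 in WT libraries (log2 fold change -3.70, adjusted p = 1.70e-23 in edgeR's test). Ccn1 and Tagln, 2 further targets, had log2 fold changes of -3.65 and -2.80, and Tpm1, a tropomyosin, of -0.31. Tagln is also one of the smooth muscle markers that were lower in KO, and the part of such cells was not tested.

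The other genes of actin control gave a mixed picture. Of 152 tested genes in 6 lists outside the set, chosen with earlier results known, 77 were higher and 59 lower in KO, with a median log2 fold change of 0.09. Over all genes tested, 34.4% were higher and 34.9% lower, and each count of a list is to be read against these shares. Rac2, the blood-cell Rac that drives WAVE, was at 793 ± 24.5 CPM in KO and 533 ± 2.20 CPM in WT (SD, n = 3 each; log2 fold change 0.57), and Rhog, Dock2 and the inhibitor Arhgdib were higher by 0.60, 0.45 and 0.44. Among podosome and adhesion adaptors and kinases, 16 of 31 were higher and 12 lower. Among those with the smallest p were Mmp14, a membrane-bound collagenase (log2 fold change 0.89), Fgr, a Src-family kinase (1.30), and Hcls1, the blood-cell cortactin relative (0.75). Changes of at least 1.5-fold went both ways in this list, with 4 genes higher and 6 lower in KO. Over all genes tested, 8.4% were higher and 9.39% lower at that size. Among the 6 lower genes was Sh3pxd2a, a podosome scaffold (log2 fold change -1.42).

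Of 22 other capping, severing and monomer-binding genes, 13 were higher and 7 lower in KO. Gmfg, which removes Arp2/3 branches, was at 150 ± 1.93 CPM in KO and 57.7 ± 2.09 CPM in WT (SD, n = 3 each; log2 fold change 1.38). Tmsb4x, the monomer-binding thymosin beta-4, was at 5203 ± 51.1 CPM in KO and 3354 ± 101 CPM in WT (SD, n = 3 each; log2 fold change 0.63). Aif1, the macrophage bundling protein IBA1, rose by 1.40, and Scin fell by 2.92, on the log2 scale. Of 20 nucleators and activators outside the set, 7 were higher and 10 lower in KO. Those with the smallest p were Diaph3 (log2 fold change -1.58), Cyfip2 (-0.58), Washc2 (-0.36) and Abi3 (0.59). Among tropomyosins, myosins and other crosslinkers, 18 of 33 were higher and 13 lower, led by Marcksl1 (1.21), Myo5a (-0.75), Marcks (0.71) and Iqgap2 (0.81).

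On the X chromosome lie Was, Diaph2, Msn and Flna, with log2 fold changes of 0.05 to 0.44, of which those of Diaph2 and Msn were below 0 on the TPM scale. The 46 other genes of the set kept their calls in a fit without genes of the X and Y chromosomes.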

How the data were processed

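Libraries were made from polyA-selected RNA of sorted alveolar macrophages, per the labels' protocols. The submitters' processing notes name HISAT, Bowtie2 and the build GRCm38.p6. Counter, annotation and strand setting are not stated. Estimated counts per gene, deposited by the authors, are not whole for 8.66% to 9.19% of genes per library and were rounded first. The authors also deposited FPKM and TPM values, per the file headers. The deposited signal of normalised counts was not used, and neither was a table of log2(FPKM + 1) values.

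Counts of 11817 genes that passed filterByExpr (4007 did not) were compared with edgeR 4.0.16 (R 4.3.3; TMM scaling, quasi-likelihood test, group only), with Benjamini-Hochberg adjustment over all of them and a threshold of 0.05. CPM use the scaled library sizes. The 50 genes, their classes and the other lists were chosen with earlier results of these data known, and the paralogue families after values were seen, so counts of a list are descriptions and no list was tested as a set. Values per library are given for genes changed at least 1.5-fold, for the gene with the highest CPM of each class, and for genes under 10 counts in every library of a group; a few others were chosen after their values were seen. Genes outside the set are from the first 4 by p of each list, and some results are not reported here. Coordinates and promoters are RefSeq's for GRCm38.p6, in which 15774 gene identifiers matched. The transcript length came from the ratio of counts to FPKM. Alternatives were other scalings, filters and thresholds, DESeq2 1.42.0, limma 3.58.1 (voom, log2(FPKM + 1) and log2(TPM + 1)), a minimum fold, an assumed spread, a replicate block and leaving out each library; a length offset was added after the data were seen. Tested on simulated data were the main fit, the assumed spread, the replicate block, the minimum fold, the length offset, voom, DESeq2 and limma on log CPM. The other scalings and filters, the FPKM and TPM values and the fits with libraries or genes left out were not simulated. No length trend was simulated, so that test does not show how well the length offset removes one. Python 3.11.15, pandas 2.3.3, SciPy 1.17.1 and matplotlib 3.10.9 did the rest. With 3 libraries a group, an exact permutation test of 1 gene could not go below p = 0.1.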

Additional observations from a re-analysis of the deposited data

How the results depend on the processing

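Vill, Vasp, Coro1b, Enah, Fmnl2, Ezr and Lsp1, which changed at least 1.5-fold, were called in the same direction in all 23 settings, the standard one included. For Vill and Enah these calls are descriptions, since each passed the standard filter only through the group where it was high. Of the 50 genes, 34 were higher and 11 lower, in 9 of 12 classes more often higher; on log2(TPM + 1), limma gave 18 higher, 21 lower and 4 such classes. With an assumed spread (biological coefficient of variation 0.1), 4406 genes passed in place of 8179, with 11 of the set higher, 5 lower and 76 of the 136 called genes of the other lists; a minimum fold of 1.2 left 3771, 11, 5 and 66. Leaving out 1 library gave 31 to 34 higher and 10 to 11 lower genes, 7 to 7 at 1.5-fold, 9 to 10 classes, 7755 to 7935 genes in all and 131 to 135 of the other lists. Log2 fold changes that turned sign on log2(TPM + 1) were Actg1 -0.0657, Arpc1a -0.0479, Arpc3 -0.00344, Arpc5l -0.0545, Actr3 -0.0620, Wasf2 -0.0215, Nckap1l -0.0405, Gsn -0.0544, Diaph2 -0.0534, Fmnl1 -0.0649, Fmnl3 -0.0907, Msn -0.0851, Myo1e -0.0536 and Lcp1 -0.0784. Without scaling, Fmnl3 (-0.00647), Msn (-0.00289) and Myo1e (-0.000546) turned, on log2(FPKM + 1), with or without a filter, Fmnl3 (-0.0124) and Msn (-0.00374), and on log2(FPKM + 0.1) Fmnl3 (-0.0129) and Msn (-0.00374). With the length offset, Arpc5l (-0.0172), Diaph1 (0.00792) and Myh9 (0.118) turned, and over the fits without 1 library Myh9 ranged between -0.0271 and 0.0128, the last without WT replicate 3. The median of all genes on log2(TPM + 1) was -0.123, below each of the values listed for that scale. The cause of these turns was not tested. DESeq2 and a threshold of 0.01 each ended the calls of Arpc1a, Diaph2 and Myo1e, and leaving out 1 library ended those of Arpc1a, Diaph1, Diaph2 or Myo1e and, without KO replicate 3, gave one for Arpc5l. The replicate block gave 34 higher and 11 lower genes, and it changed no call of the 50; same-numbered KO and WT libraries deviated together with correlations of only 0.0213 to 0.0334, so the numbers were not taken as pairs, although each KO library correlated best with its own number. Counts of 3 per library, or 0.146 to 0.153 CPM, limit what can be said of Vill in WT.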
